A study of Homo sapiens with 12 samples.

Results

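The endothelin axis was followed here through 5 genes in melanoma cells under a RAF inhibitor. They were the receptor genes EDNRB and EDNRA, the ligand genes EDN1 and EDN3, and ECE1, which encodes endothelin-converting enzyme. The 5 genes were taken by symbol from the 23273 genes of each expression table, and all 5 were found in the tables of both cell lines. They were chosen by name with their FPKM and fold changes in these data already known. Their values are therefore given as a description, and no p-value is printed for them. Their calls are counted once below beside those of all genes, and nothing is read from them.

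COLO858 and MMACSF are established BRAF-mutant human melanoma cell lines. Each was grown with DMSO, the drug vehicle, or with 0.2 μM vemurafenib, an inhibitor of mutant RAF kinase, for 24 h or 48 h. Polyadenylated RNA was sequenced from 2 replicates per group, giving 6 groups and 12 libraries. There was 1 DMSO group per line, so the 24 h and 48 h comparisons of a line share their controls, and the time in DMSO is not given in its labels. Each condition is represented by 1 cell line at a time, and no second drug, dose or washout was sequenced. The deposited values are FPKM, read counts scaled by transcript length and by library size, in a separate table for each line. Whether both tables were scaled together is not stated, so levels are compared within a line, and between lines only as the response relative to DMSO.

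Read depth could not be recovered from FPKM. Between 11679 and 11972 genes per library reached 1 FPKM, and replicates correlated at 0.966 to 0.976 on the log2(FPKM + 1) scale. A single small RNA gene, MIR4461, took 14.1% to 19.0% of the summed FPKM in the libraries numbered 1 and 25.8% to 43.4% in those numbered 2. The p-values below measure only the spread between the plates sequenced. Of the 8 endothelial markers, a cell type rich in endothelin genes, 0 reached a group mean of 1 FPKM in any group, and their sum was 0.516 to 1.34 FPKM. Of the 8 melanocytic markers, 6 to 8 reached that level in every group.

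Endothelins are short peptides cut from a larger precursor, first by furin-type proteases and then by endothelin-converting enzyme. They act on a pair of G protein-coupled receptors. The type A receptor prefers endothelin-1, whereas the type B receptor, encoded by EDNRB, binds all endothelins alike and couples to Gq and Gi proteins. In the embryo, EDN3 and EDNRB are needed by the neural crest cells that become melanocytes and enteric neurons, and loss of either leaves patches of skin without pigment and gut without ganglia.

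EDNRB lies on chromosome 13 at 78469616 to 78549664, minus strand, in GRCh37, the build of the authors' alignment (hg19). RefSeq gives it 2 promoter windows, one for each of 2 transcription start sites, and gene-level FPKM pools transcripts from both. Both windows are shown because they hold the sequence upstream of the gene with the widest swing among the receptors, and because they differ in a melanocytic motif. Each is the 250 bases before the start, written 5′ to 3′ on the strand of the gene, from RefSeq on GRCh38.p14. The upstream window is chr13:77919683-77919932 and the downstream one chr13:77918832-77919081, with the letters of the E-box CACATG in capitals.
EDNRB upstream start: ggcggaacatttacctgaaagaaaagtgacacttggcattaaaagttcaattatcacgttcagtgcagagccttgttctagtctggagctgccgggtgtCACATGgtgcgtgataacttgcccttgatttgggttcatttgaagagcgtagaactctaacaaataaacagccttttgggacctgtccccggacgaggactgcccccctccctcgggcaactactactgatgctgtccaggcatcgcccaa
EDNRB downstream start: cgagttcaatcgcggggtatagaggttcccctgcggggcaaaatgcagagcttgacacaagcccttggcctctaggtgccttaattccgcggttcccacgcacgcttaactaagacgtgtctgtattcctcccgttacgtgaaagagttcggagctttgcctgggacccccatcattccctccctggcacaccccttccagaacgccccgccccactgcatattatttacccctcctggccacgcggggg

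The windows were searched on both strands for the E-box CATGTG, which MITF can bind, for the E-box palindrome CACGTG, for the SOX core letters ACAAAG and ACAATG, and for the AP-1 letters TGACTCA. The upstream window held 1 of these, CACATG, the reverse complement of CATGTG, 151 bases before the start, and the downstream window held 0. Of 35116 promoter windows of the same length, 9.42% held CATGTG on either strand, 6.34% held CACGTG, 13.7% held ACAAAG, 9.29% held ACAATG and 4.20% held TGACTCA. A match describes the letters only.

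EDNRB, the type B receptor, was higher in drug in every library of both lines. In COLO858 it stood at 7.46 and 9.65 FPKM in DMSO, at 164 and 193 FPKM after 24 h and at 126 and 161 FPKM after 48 h. The drug-treated and DMSO libraries did not come near each other, and the 48 h libraries lay just below those of 24 h without overlap. The means ± SD (n = 2) were 8.56 ± 1.55, 179 ± 20.6 and 143 ± 24.5 FPKM, a 20.9-fold higher mean at 24 h and a 16.7-fold higher mean at 48 h. On the log2(FPKM + 1) scale, used for every log2 fold change here, EDNRB was 4.24 ± 0.20 (SE) above DMSO at 24 h and 3.91 ± 0.20 at 48 h. The step from 24 h to 48 h was -0.32 ± 0.20.

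In MMACSF, EDNRB started from a well expressed level. It was at 53.5 and 67.2 FPKM in DMSO, at 225 and 256 FPKM after 24 h and at 233 and 293 FPKM after 48 h. DMSO and drug libraries again did not overlap, whereas the 24 h and 48 h libraries did. The means ± SD (n = 2) were 60.3 ± 9.68, 241 ± 22.1 and 263 ± 42.5 FPKM, a 3.99-fold and a 4.37-fold higher mean than in DMSO. The log2 fold changes were 1.99 ± 0.18 at 24 h and 2.11 ± 0.18 at 48 h, and 0.12 ± 0.18 between the times. In bulk RNA, a change in the number of cells that express a gene and a change in RNA per cell cannot be told apart.

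The place of EDNRB among all genes of a library shifted accordingly. In COLO858, 68.7% and 70.8% of the listed genes had a lower FPKM than EDNRB in DMSO, and 97.2% to 98.3% did in drug. In MMACSF the shares were 93.1% and 94.3% in DMSO and 98.5% to 98.9% in drug. Ordered by log2 fold change from the highest, EDNRB was number 17 of 12696 genes tested in COLO858 at 24 h and number 36 at 48 h. In MMACSF it was number 92 of 12599 at 24 h and number 110 at 48 h. The COLO858 response exceeded that of MMACSF by 2.25 ± 0.28 on the log2 scale at 24 h and by 1.81 ± 0.28 at 48 h.

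**Figure D1:**
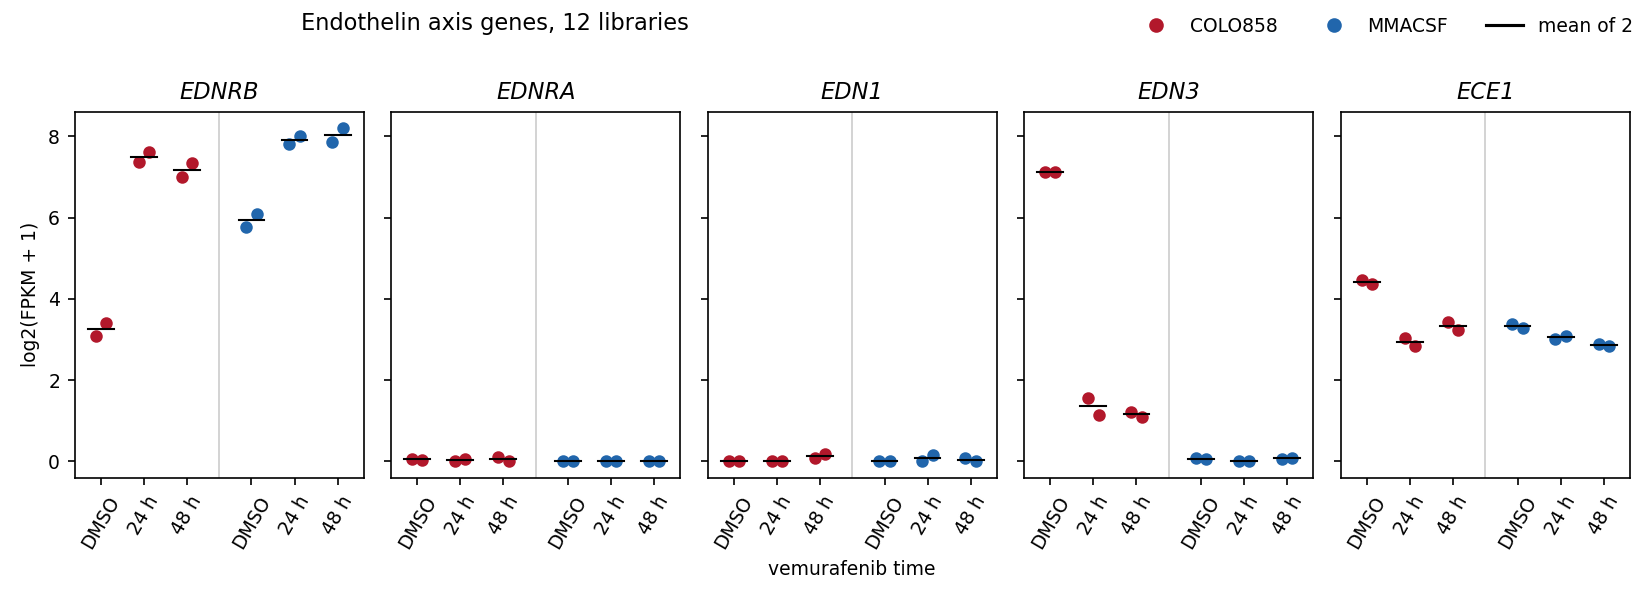
Level of each of the 5 endothelin genes in each of the 12 libraries, as log2(FPKM + 1), by group (DMSO, 24 h and 48 h in 0.2 μM vemurafenib). Points are single libraries (COLO858 red, MMACSF blue), black bars are the means of 2, and the lines' tables may be scaled differently. EDNRB is higher in drug in both lines, EDN3 is high only in the COLO858 DMSO libraries among the 12, and EDNRA and EDN1 lie near 0 in all of them.

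EDNRA, the type A receptor gene (chromosome 4, 148402069 to 148466106, plus strand), was at or near 0 throughout. In COLO858 it was at 0.0396 and 0.0222 FPKM in DMSO, at 0 and 0.0309 after 24 h and at 0.0679 and 0 after 48 h. In MMACSF it was listed at 0 in all 6 libraries. EDNRB was thus the endothelin receptor gene above 1 FPKM in both lines, in DMSO and in drug. No fold change was formed for EDNRA, which stayed below the minimum of 1 FPKM in a group mean that a gene needed to enter the fits.

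EDN1, the gene of endothelin-1 (chromosome 6, 12290594 to 12297427, plus strand), was likewise too low to enter the fits. It was listed at 0 in 4 of the 6 COLO858 libraries and reached 0.0511 and 0.138 FPKM in the 48 h libraries. Of the MMACSF libraries 4 of 6 were listed at 0, with 0.121 FPKM in 1 library of 24 h and 0.0492 FPKM in 1 of 48 h. EDN2, the gene of the remaining endothelin and not one of the 5, was at 0.116 FPKM or less in COLO858 and at 0 in all 6 MMACSF libraries. Without a known depth, values this close to 0 cannot be separated from absence.

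EDN3 encodes endothelin-3, a ligand of the type B receptor (chromosome 20, 57875498 to 57901047, plus strand). In COLO858 it was abundant in DMSO and close to 1 FPKM in drug. The libraries stood at 138 and 139 FPKM in DMSO, at 1.95 and 1.22 FPKM after 24 h and at 1.32 and 1.14 FPKM after 48 h. Every drug-treated library was far below both DMSO libraries, and the libraries of the 2 times overlapped. The means ± SD (n = 2) were 138 ± 1.13, 1.58 ± 0.516 and 1.23 ± 0.126 FPKM, an 87.5-fold lower mean at 24 h and a 112-fold lower mean at 48 h.

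On the log2(FPKM + 1) scale, EDN3 in COLO858 was -5.77 ± 0.18 at 24 h and -5.97 ± 0.18 at 48 h relative to DMSO, and -0.20 ± 0.18 between the times. The added 1 FPKM shortens these values, and the plain ratios of the means were -6.45 and -6.81 on the log2 scale. Ordered from the most negative log2 fold change, EDN3 was number 12 of 12696 genes at 24 h and number 11 at 48 h. Receptor and ligand thus traded places within this line. In DMSO, EDN3 was above EDNRB in both libraries, and in drug EDNRB was above EDN3 in all 4.

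In MMACSF, EDN3 was near 0 in every group. It was at 0.0536 and 0.0391 FPKM in DMSO, listed at 0 in both 24 h libraries, and at 0.0475 and 0.0544 FPKM after 48 h. It was too low there to enter the fit of the line. In the fit of all 12 libraries the difference between the lines' responses was -5.70 ± 0.20 at 24 h and -5.97 ± 0.20 at 48 h, which is almost wholly the COLO858 change.

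ECE1, the enzyme that cuts the endothelin precursor to the active peptide, lies on chromosome 1 at 21543740 to 21672065, minus strand. In COLO858 it was at 20.9 and 19.5 FPKM in DMSO, at 7.24 and 6.20 FPKM after 24 h and at 9.81 and 8.47 FPKM after 48 h. No 2 of these groups overlapped. The means ± SD (n = 2) were 20.2 ± 0.984, 6.72 ± 0.736 and 9.14 ± 0.944 FPKM, a 3.01-fold lower mean at 24 h and a 2.21-fold lower mean at 48 h. The log2 fold changes were -1.46 ± 0.15 and -1.07 ± 0.15, with 0.39 ± 0.15 from 24 h to 48 h.

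In MMACSF, ECE1 was at 9.39 and 8.74 FPKM in DMSO, at 7.08 and 7.48 FPKM after 24 h and at 6.36 and 6.14 FPKM after 48 h. The 3 groups did not overlap here either, but the steps were small. The means ± SD (n = 2) were 9.07 ± 0.463, 7.28 ± 0.281 and 6.25 ± 0.156 FPKM, a 1.24-fold and a 1.45-fold lower mean than in DMSO. The log2 fold changes were -0.28 ± 0.13 and -0.47 ± 0.13. The COLO858 response was lower than that of MMACSF by -1.18 ± 0.17 on the log2 scale at 24 h and by -0.60 ± 0.17 at 48 h.

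**Figure D2:**
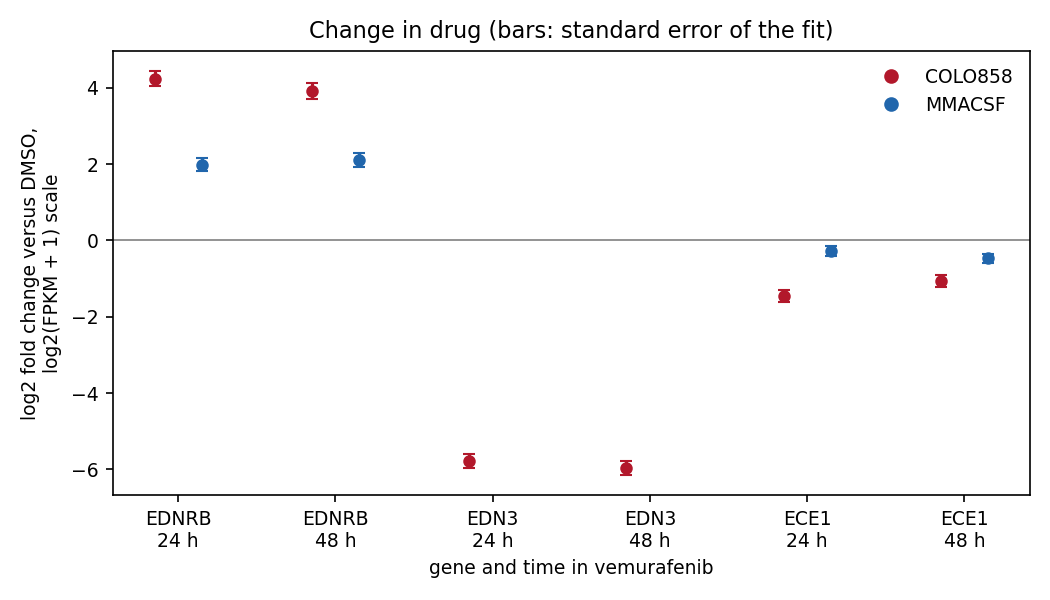
Log2 fold change versus DMSO, on the log2(FPKM + 1) scale, of the 3 endothelin genes that could be fitted, at 24 h and 48 h in vemurafenib. Points are the fitted changes in COLO858 (red) and MMACSF (blue) and bars their standard errors, and EDN3 has no MMACSF point because it was too low to be fitted there. EDNRB lies above 0 in both lines, at 4.24 and 3.91 in COLO858 and 1.99 and 2.11 in MMACSF, while EDN3 and ECE1 lie below 0.

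Counted against all genes, 3 of the 5 entered the COLO858 fit, and at an adjusted p under 0.01 in limma 1 was higher and 2 were lower at 24 h, and 1 was higher and 2 were lower at 48 h. Of all genes tested in that line, 9.82% passed at 24 h (4.11% higher and 5.71% lower) and 9.47% at 48 h (4.74% higher and 4.73% lower). In MMACSF, 2 of the 5 entered, and 1 was higher and 0 lower at each time, where 5.83% of all genes passed at 24 h (2.22% higher and 3.60% lower) and 8.83% at 48 h (3.42% higher and 5.41% lower). At an unadjusted p under 0.05, 4534 of all 12599 genes passed at 24 h and 4907 at 48 h. In the test of the line difference 3 of the 5 entered, and 3 passed at 24 h and 2 at 48 h, where 3.71% and 7.48% of all genes did. Since the 5 genes were chosen for their changes, nothing is read from these counts. Annotated exons of EDNRB overlap OBI1-AS1 and those of ECE1 overlap ECE1-AS1, both on the opposite strand. The library kit kept strand, but the strand setting of the authors' counting is not given in the sources used here, so reads of such partners may be included. EDNRB exons also overlap an unnamed gene on their own strand. Among the other genes named below, ARRB1, CDH2, F2RL1, GPRC5B, KITLG, MC1R, MME, SNAI2, SOX10, TFAP2A and ZEB2 have exons that overlap a gene on the opposite strand, and ARRB1, ECE2, ITGB3, MC1R, MMP2, RGS5 and ZEB2 one on their own strand.

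The genes around the axis were described through 6 lists with 76 genes in all, none of them among the 5. Like the 5 genes, the lists were chosen with earlier results of these data known. Their p-values and counts are therefore a description and not an independent test. In COLO858, 60 of the 76 could be tested, and 7 rose and 8 fell at 24 h, and 8 rose and 6 fell at 48 h (limma, Benjamini-Hochberg adjusted p under 0.01 over all genes tested). In MMACSF, 60 could be tested, and 6 rose and 1 fell at 24 h, and 5 rose and 2 fell at 48 h. Of all genes, 9.82% and 9.47% passed in COLO858 at 24 h and 48 h, and 5.83% and 8.83% in MMACSF. Over the listed genes the median change at 48 h was -0.06 on the log2 scale in COLO858 and 0.10 in MMACSF, beside medians over all genes of -0.01 and 0.06. In each line the counts fell whichever library was left out, also a library outside the comparison. Such fits have fewer libraries to estimate the spread. Lower counts in them therefore do not show that a change rested on 1 library. Leaving out each COLO858 library in turn left 1 to 8 of the listed genes called at 24 h and 1 to 6 at 48 h. The lowest count at 24 h came without replicate 2 of DMSO, and at 48 h without that library or without either 48 h library. In MMACSF the count was 0 at 24 h whichever library was left out. At 48 h it was 3 without either 24 h library and 0 without any of the others. ITGB3 in COLO858 was the listed gene, among those named here, that passed at both times whichever library was left out.

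Between 24 h and 48 h few listed genes passed the test. In COLO858 1 of 60 passed, the lysophosphatidic acid receptor gene LPAR1, where 1.38% of all genes did. In MMACSF 0 of 60 passed in limma, where 0.222% of all genes did. At an unadjusted p under 0.05 the listed counts were 21 in COLO858 and 5 in MMACSF, beside 2548 of 12696 and 879 of 12599 among all genes. With the replicate number as a block, the COLO858 count was 21, beside 2280 of 12696 among all genes. The COLO858 changes of KITLG (1.47), RGS3 (1.07) and GPRC5B (-1.06) over this step did not pass (limma adjusted p = 0.0226, 0.0128 and 0.015).

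**Figure D3:**
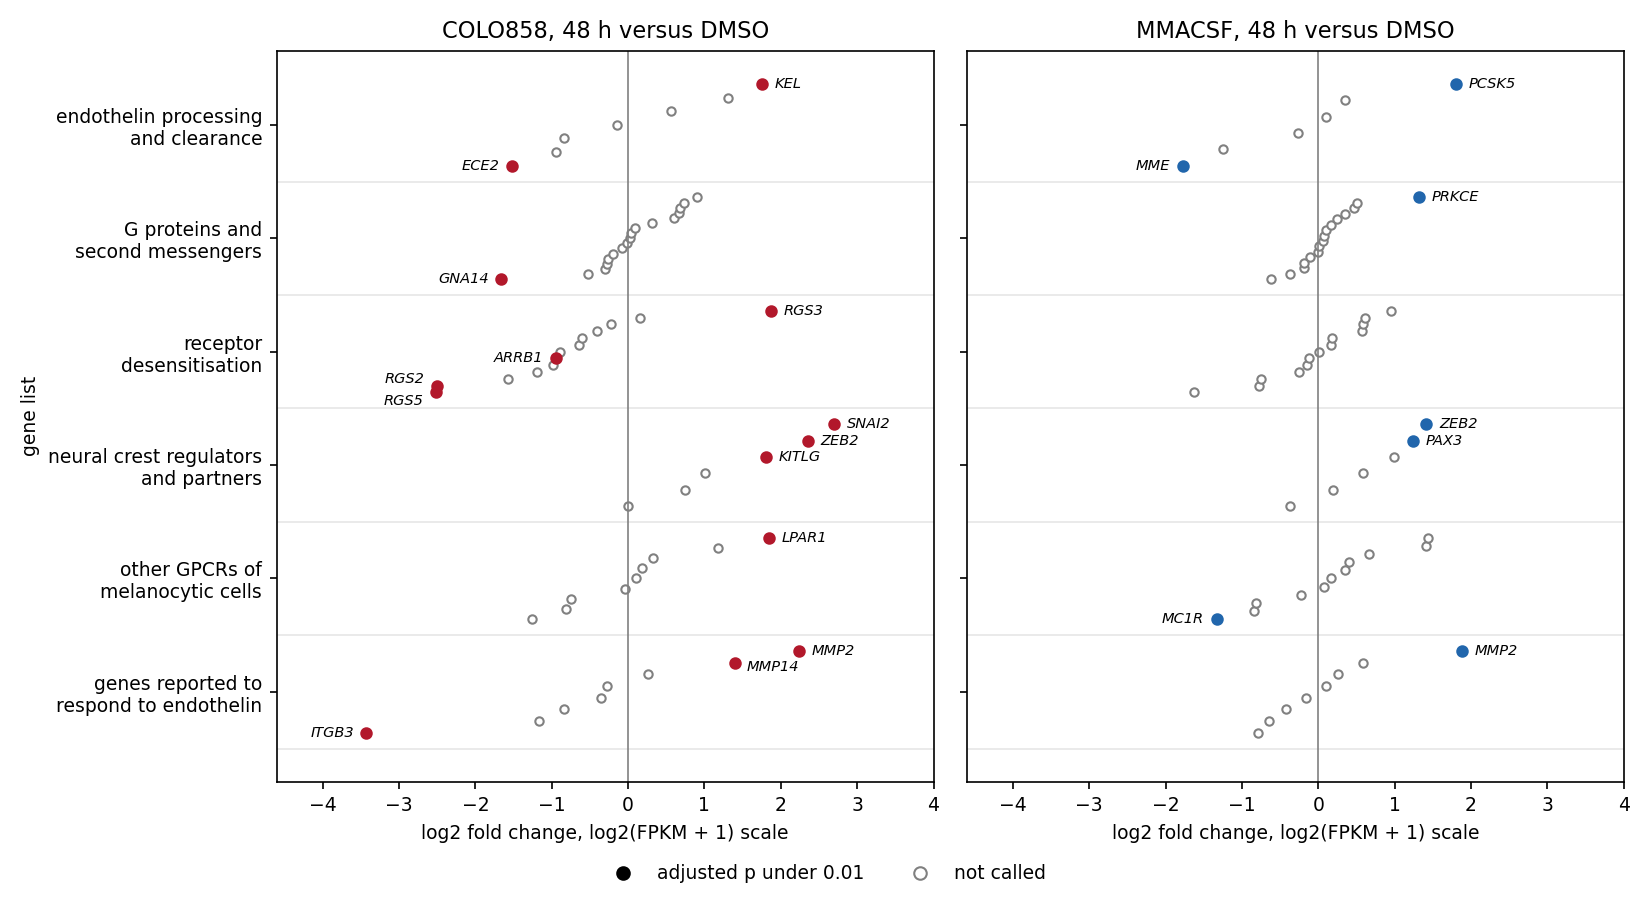
Log2 fold change at 48 h versus DMSO, on the log2(FPKM + 1) scale, of the 60 listed genes tested in each line, by list, in COLO858 (left) and MMACSF (right). Filled points passed an adjusted p of 0.01 and are named, and open points did not. Called genes number 14 in COLO858, from ITGB3 at -3.43 to SNAI2 at 2.70, and 7 in MMACSF. Of all genes, 9.47% and 8.83% passed.

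Enzymes of endothelin processing and clearance made up the list closest to the 5 genes. Of its 9 genes, 7 were tested in COLO858 and 6 in MMACSF. KEL, a membrane protease of the red cell surface that also cuts endothelin precursors, rose in COLO858. It was at 0.488 and 0.240 FPKM in DMSO, at 5.60 and 4.56 FPKM after 24 h and at 3.56 and 3.58 FPKM after 48 h, a log2 fold change of 2.16 ± 0.17 at 24 h (limma adjusted p = 0.00172) and 1.75 at 48 h (limma adjusted p = 0.00305). KEL entered this fit only through the drug groups, so a rise was partly fixed by the minimum of 1 FPKM. MMACSF libraries held 0.204 FPKM or less, and KEL was not tested there. The difference between the lines' responses was 2.09 at 24 h (limma adjusted p = 0.000767) and 1.59 at 48 h (limma adjusted p = 0.00138). That difference is almost wholly the COLO858 change.

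MME, the gene of neprilysin, which degrades endothelins and other peptides, fell in both lines. In MMACSF it was at 5.43 and 7.46 FPKM in DMSO and at 1.01 and 1.30 FPKM after 48 h, a log2 fold change of -1.65 ± 0.20 at 24 h (limma adjusted p = 0.0067) and -1.78 ± 0.20 at 48 h (limma adjusted p = 0.00448). In COLO858 it was at 4.15 and 5.56 FPKM in DMSO and at 0.747 and 0.766 FPKM after 24 h, a change of -1.73 ± 0.21 (limma adjusted p = 0.00546). At 48 h, with 1.60 and 2.52 FPKM, its change of -0.94 did not pass (limma adjusted p = 0.0307).

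ECE2, a second endothelin-converting enzyme, was at 8.63 and 8.57 FPKM in COLO858 with DMSO and at 2.61 and 2.11 FPKM after 48 h, and fell by 1.52 on the log2 scale (limma adjusted p = 0.00466). In MMACSF its replicates lay further apart, at 10.6 and 8.31 FPKM in DMSO and 5.34 and 1.52 FPKM after 24 h, and its 48 h change of -1.25 did not pass (limma adjusted p = 0.0937). Its exons overlap those of the readthrough gene EEF1AKMT4-ECE2 on the same strand, so its reads may be shared. PCSK5, a proprotein convertase of the furin family, rose only in MMACSF among the lines and passed the test of the difference. It went from 4.02 and 3.60 FPKM in DMSO to 12.4 and 13.7 FPKM at 24 h and 17.1 and 14.7 FPKM at 48 h, a log2 fold change of 1.81 ± 0.15 at 48 h (limma adjusted p = 0.00184). The line difference was -2.19 at 24 h (limma adjusted p = 0.00129) and -1.95 at 48 h (limma adjusted p = 0.00108).

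Signal carriers below the receptor formed the longest of the 6 lists. Of 19 genes for G proteins, phospholipase C-beta, inositol trisphosphate receptors and protein kinase C, 17 were tested in COLO858 and 1 passed at each time, and 16 were tested in MMACSF, of which 0 passed at 24 h and 1 at 48 h. Of all genes, 9.82% and 9.47% passed in COLO858 at 24 h and 48 h, and 5.83% and 8.83% in MMACSF. At an unadjusted p under 0.05, 3 and 6 of the 17 passed in COLO858 at 24 h and 48 h, and 2 and 4 of the 16 in MMACSF. Among all genes, 5120 and 4994 of 12696 did so in COLO858, and 4534 and 4907 of 12599 in MMACSF. At 48 h the list's median was 0.02 on the log2 scale in COLO858 and 0.07 in MMACSF. GNA14, a Gq family subunit, was at 2.17 and 2.56 FPKM in COLO858 with DMSO, was listed at 0 in both 24 h libraries, and was at 0.0918 and 0.0382 FPKM after 48 h. It fell by 1.66 on the log2(FPKM + 1) scale at 48 h (limma adjusted p = 0.00189). GNA14 entered the fit only through its DMSO mean, so a fall was partly fixed by the minimum of 1 FPKM. The MMACSF libraries were listed at 0, all 6 of them, in DMSO as well as in drug. PRKCE, protein kinase C epsilon, rose in MMACSF at 48 h, from 8.03 and 8.01 FPKM to 20.3 and 22.8 FPKM, a log2 fold change of 1.32 ± 0.13 (limma adjusted p = 0.00348). In COLO858 its changes of 1.03 at 24 h (limma adjusted p = 0.0124) and 0.67 at 48 h (limma adjusted p = 0.0403) did not pass. PRKCA, protein kinase C alpha, just missed the threshold in COLO858 at 48 h, at 0.90 (limma adjusted p = 0.0112), and was named after its values were seen.

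Receptor desensitisation genes, which encode receptor kinases, arrestins and the RGS proteins that switch G proteins off, were 14 in number. Of 13 tested in COLO858, 1 rose and 2 fell at 24 h, and 1 rose and 3 fell at 48 h. The middle log2 fold change of the list was -0.59 at 24 h and -0.89 at 48 h. In MMACSF, 0 of 13 passed at either time in limma, with medians of 0.00 and 0.00. Of all genes, 9.82% and 9.47% passed in COLO858 at 24 h and 48 h, and 5.83% and 8.83% in MMACSF. At an unadjusted p under 0.05, COLO858 had 9 such genes at each time, and MMACSF had 6 at 24 h and 7 at 48 h. Among all genes, 5120 and 4994 of 12696 did so in COLO858, and 4534 and 4907 of 12599 in MMACSF. The line difference passed for 1 of 14 at 24 h and for 4 of 14 at 48 h, where 3.71% and 7.48% of all genes did. RGS2, a Gq-selective RGS protein, was at 41.4 and 57.0 FPKM in COLO858 with DMSO, at 4.94 in both 24 h libraries and at 6.61 and 9.07 FPKM after 48 h. It fell by 3.06 at 24 h (limma adjusted p = 0.00145) and by 2.50 at 48 h (limma adjusted p = 0.00256) on the log2 scale. In MMACSF the change of RGS2 at 48 h was -1.62 (limma adjusted p = 0.0109), and the line difference of -0.88 at that time did not pass.

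RGS5 went the same way in COLO858, from 17.6 and 28.1 FPKM in DMSO to 2.44 and 3.10 FPKM at 24 h and 2.46 and 3.78 FPKM at 48 h, a log2 fold change of -2.52 at 48 h (limma adjusted p = 0.00476). Its MMACSF change at 24 h was 0.94 and did not pass (limma adjusted p = 0.0355), and the line difference was -3.57 at 24 h (limma adjusted p = 0.00111) and -3.13 at 48 h (limma adjusted p = 0.001). RGS3 rose in COLO858, from 18.8 and 17.8 FPKM to 71.7 and 67.6 FPKM at 48 h, by 1.87 on the log2 scale (limma adjusted p = 0.00115), with a line difference of 1.70 (limma adjusted p = 0.000268). ARRB1, beta-arrestin 1, was at 5.94 and 6.22 FPKM in COLO858 with DMSO and at 2.55 and 2.83 FPKM after 48 h, and fell by 0.94 (limma adjusted p = 0.00865). RGS10 did not pass in either line at 48 h, with changes of -1.57 in COLO858 (limma adjusted p = 0.0153) and 0.57 in MMACSF (limma adjusted p = 0.014), while the difference of -2.15 between them did (limma adjusted p = 0.00253).

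Neural crest regulators and signaling partners include the factors known to act on EDNRB transcription in melanocyte precursors. Of 8 genes, 6 were tested in each line. In COLO858 2 rose at 24 h and 3 at 48 h, and in MMACSF 3 rose at 24 h and 2 at 48 h in limma. Every called gene of this list rose. Among all genes, 4.11% and 4.74% were called higher in COLO858, and 2.22% and 3.42% in MMACSF. At 48 h the list's median was 1.41 on the log2 scale in COLO858 and 0.79 in MMACSF. SNAI2, a neural crest zinc-finger repressor, was at 2.25 and 2.44 FPKM in COLO858 with DMSO, at 29.8 and 36.7 FPKM after 24 h and at 18.4 and 23.4 FPKM after 48 h. It rose by 3.35 ± 0.19 at 24 h (limma adjusted p = 0.000829) and by 2.70 at 48 h (limma adjusted p = 0.00126). In MMACSF it went from 84.3 and 107 FPKM to 236 and 270 FPKM at 24 h, by 1.40 (limma adjusted p = 0.00713), and its 48 h change of 1.00 did not pass (limma adjusted p = 0.0142). The line difference of SNAI2 was 1.95 at 24 h (limma adjusted p = 0.00298) and 1.70 at 48 h (limma adjusted p = 0.00299).

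ZEB2, a zinc-finger factor of the melanocyte lineage, rose in both lines, by 2.35 in COLO858 at 48 h (limma adjusted p = 0.00281) and by 1.41 in MMACSF (limma adjusted p = 0.00883). KITLG, the ligand of the KIT receptor, was at 1.05 and 1.43 FPKM in COLO858 with DMSO and at 5.65 and 8.21 FPKM after 48 h, and rose by 1.81 (limma adjusted p = 0.00476), with a line difference of 2.18 (limma adjusted p = 0.00717). PAX3 rose in MMACSF, from 25.3 and 24.3 FPKM to 58.9 and 61.0 FPKM at 48 h, by 1.24 (limma adjusted p = 0.00284). In COLO858 its change of 0.75 at 48 h did not pass (limma adjusted p = 0.029).

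SOX10 and MITF, the factors most often tied to EDNRB in melanocytes, did not pass in either line at either time in the fits without a block. With the replicate number as a block, SOX10 passed in COLO858 at both times and in MMACSF at 48 h, and MITF in COLO858 at 24 h. SOX10 was higher in the library numbered 1, and MITF in that numbered 2, in 6 of 6 groups. SOX10 was at 227 and 160 FPKM in COLO858 with DMSO and at 453 and 323 FPKM after 48 h, a log2 fold change of 1.00 ± 0.27 (limma adjusted p = 0.0491), and its MMACSF change at 48 h was 0.59 (limma adjusted p = 0.125). MITF was at 56.2 and 79.2 FPKM in COLO858 with DMSO and at 57.0 and 77.6 FPKM after 48 h. Its 48 h change was 0.20 in MMACSF (limma adjusted p = 0.568). A missed threshold does not show that these genes were constant.

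Other G protein-coupled receptors of melanocytic cells formed a list of 16 genes, of which 9 were tested in COLO858 and 11 in MMACSF. LPAR1 was flat at 24 h in COLO858 and then rose, from 1.72 and 2.11 FPKM in DMSO and 1.99 and 2.09 FPKM at 24 h to 8.32 and 10.7 FPKM at 48 h, by 1.84 against DMSO (limma adjusted p = 0.00294) and by 1.78 against 24 h (limma adjusted p = 0.00892). The melanocortin receptor gene MC1R fell in MMACSF at 48 h, from 42.7 and 34.9 FPKM to 16.1 and 13.4 FPKM, by 1.33 on the log2 scale (limma adjusted p = 0.00848). Its exons overlap those of TCF25 and other genes. At 24 h in COLO858 the protease-activated receptor genes F2R and F2RL1 fell, by 1.85 (limma adjusted p = 0.00374) and 1.04 (limma adjusted p = 0.00522), and GPR56 rose by 0.96 (limma adjusted p = 0.00979). F2R and GPR56 were named after their values were seen.

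GPRC5B, an orphan receptor gene, rose in MMACSF at 24 h by 0.80 (limma adjusted p = 0.00835). At 48 h it passed in neither line, with -0.75 in COLO858 (limma adjusted p = 0.0139) and 0.66 in MMACSF (limma adjusted p = 0.0111), while the line difference of -1.41 did (limma adjusted p = 0.000421). S1PR3, a sphingosine 1-phosphate receptor gene, was at 0.0874 FPKM or less in COLO858 and was at 2.47 and 3.13 FPKM in MMACSF with DMSO and 1.12 and 1.16 FPKM after 48 h, a change of -0.82 that did not pass in the line (limma adjusted p = 0.0194).

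Melanoma genes that endothelin stimulation is known to change, by general knowledge rather than by these data, were 10 in number, and 8 were tested in each line. In COLO858 2 rose and 2 fell at 24 h, and 2 rose and 1 fell at 48 h. In MMACSF 1 rose at each time and the other 7 did not pass. Of all genes, 9.82% and 9.47% passed in COLO858 at 24 h and 48 h, and 5.83% and 8.83% in MMACSF. MMP2, the gelatinase A gene, rose in both lines, from 15.8 and 12.6 FPKM to 73.6 and 67.6 FPKM at 48 h in COLO858, by 2.24 (limma adjusted p = 0.0013), and from 31.1 and 26.9 FPKM to 116 and 102 FPKM in MMACSF, by 1.88 (limma adjusted p = 0.00119). MMP14, which encodes the membrane protease that activates gelatinase A, rose in COLO858, from 12.6 and 11.2 FPKM to 34.1 and 31.8 FPKM, by 1.39 (limma adjusted p = 0.00325). In MMACSF its change was -0.16, and the line difference at 48 h was 1.56 (limma adjusted p = 0.00113).

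ITGB3, the integrin beta-3 gene, fell in COLO858 from 167 and 181 FPKM to 29.1 and 29.5 FPKM at 24 h and 15.5 and 15.0 FPKM at 48 h. On the log2 scale the change was -2.53 at 24 h (limma adjusted p = 0.000688) and -3.43 at 48 h (limma adjusted p = 0.000262). In MMACSF it went from 63.8 and 75.3 FPKM to 41.3 and 46.4 FPKM at 48 h, a change of -0.65 that did not pass (limma adjusted p = 0.0403), and the line difference was -2.78 (limma adjusted p = 6.15e-05). CDH2, the N-cadherin gene, fell in COLO858 from 73.0 and 86.9 FPKM to 22.0 and 25.0 FPKM at 24 h, a change of -1.72 (limma adjusted p = 0.00341). Its 48 h change of -1.17 just missed the threshold (limma adjusted p = 0.0101), and the line difference at 48 h was -1.42 (limma adjusted p = 0.00527).

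The genes whose response was nearest to that of EDNRB were found by the largest gap to EDNRB over the 8 drug-treated libraries. Each library was taken as log2(FPKM + 1) minus the DMSO mean of its line, and 13594 genes were compared. The nearest was LOC100130275, with a largest gap of 0.624, followed by DCT, the pigment enzyme dopachrome tautomerase, at 1.08, and by MGC16121 at 1.16. Then came STK32A and SNAI2, both at 1.22, the neural crest factor TFAP2A at 1.34, OLFML2A at 1.36 and the transforming growth factor beta receptor gene TGFBR2 at 1.42. The next gene in order also had a gap of 1.42, so the end of the list is not a sharp one. With 0.1 FPKM added in place of 1, only 2 of the 8 stayed on the list, so it depends on the added value. Genes were picked for nearness to EDNRB in these libraries, so a shared pattern is partly built in. The points share libraries and controls, and the list is a description with no test.

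LOC100130275 went from 1.45 and 0.729 FPKM in COLO858 with DMSO to 33.4 and 26.3 FPKM at 24 h and 41.3 and 29.2 FPKM at 48 h. DCT went from 252 and 283 FPKM to 2788 and 3042 FPKM at 24 h and 2140 and 2161 FPKM at 48 h. In MMACSF, DCT was at 758 and 869 FPKM in DMSO and at 1796 and 1861 FPKM after 48 h. Like EDNRB, DCT had the lower 48 h libraries in COLO858, and both responses were smaller in MMACSF. TGFBR2 and OLFML2A differed from EDNRB in that both were higher at 48 h than at 24 h in COLO858, by 1.05 and 2.11 on the log2 scale.

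**Figure D4:**
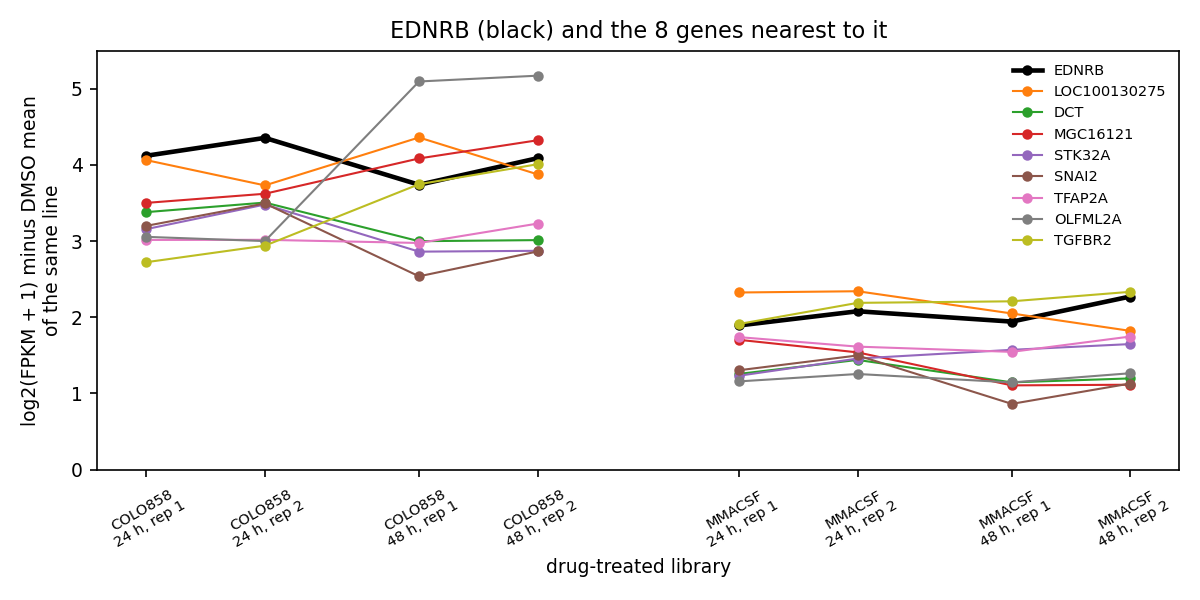
EDNRB (black) and the 8 genes nearest to it, as log2(FPKM + 1) minus the mean of the DMSO libraries of the same line, in each of the 8 drug-treated libraries. Lines join the libraries of a line for reading only. EDNRB lies between 3.74 and 4.36 in COLO858 and between 1.89 and 2.27 in MMACSF, and the other genes are also lower in MMACSF than in COLO858.

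DCT is one of the 8 melanocytic markers, and the summed FPKM of the list was higher in drug in both lines. Single markers went both ways. The sum in COLO858 was 703 to 770 in DMSO, 3951 to 4143 after 24 h and 4137 to 4178 after 48 h. In MMACSF it was 11562 to 11568 in DMSO, 15708 to 16803 after 24 h and 16795 to 17427 after 48 h. In COLO858 DCT, PMEL, S100B and TYRP1 rose at both times, 4 of the 7 markers tested, and the median over the 7 was 1.95 on the log2 scale at 48 h, with MIA at -0.28 and TYR at -0.21, which did not pass. In MMACSF DCT, MLANA and TYR rose and MIA fell at 48 h, 4 of 8 tested. Of all genes, 9.82% and 9.47% passed in COLO858 at 24 h and 48 h, and 8.83% in MMACSF at 48 h. The melanocytic markers other than DCT were named after their values were seen. The part of the marker genes in the EDNRB values was not tested.

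Fibroblast and leukocyte markers were low in COLO858. The fibroblast markers summed to 9.83 to 12.6 FPKM in COLO858 with DMSO and 26.4 to 36.4 FPKM after 48 h, and to 58.0 to 79.3 and 20.2 to 29.1 FPKM in MMACSF. The leukocyte markers summed to 13.3 to 18.1 and 4.31 to 5.80 FPKM in COLO858. In MMACSF they summed to 82.6 to 89.3 and 77.5 to 84.0 FPKM. In DMSO 2 of these 8 reached a mean of 1 FPKM in each line. At 48 h, of 2 leukocyte markers tested per line, CD68 fell in COLO858 and LYZ in MMACSF. COL3A1 and COL1A1 rose and COL1A2 fell in COLO858, 3 of 6 fibroblast markers tested, and 0 of 3 passed in MMACSF. Of all genes, 9.47% passed in COLO858 and 8.83% in MMACSF. These markers were named after their values were seen. Their part in the changes of the axis was not tested.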

How the data were processed

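RNA was measured in 6 groups of 2 libraries each. Per the authors, single-end reads were aligned with TopHat (defaults, hg19), and Cuffdiff gave the FPKM deposited in 1 table per cell line. Versions, gene annotation, strand setting and library scaling are not given in the sources used here. Read depth is unknown, so no counting interval is given.

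All 12 columns were used. FPKM were log2-transformed after adding 1. Genes whose mean reached 1 FPKM in some group were fitted with limma 3.58.1 in R 4.3.3, using group means, empirical Bayes and a trended prior variance. Each line was fitted alone and line differences as an interaction over 12 libraries. Tests were two-sided, Benjamini-Hochberg adjusted over all genes tested, with a threshold of 0.01. The code was tested on simulated data. Alternatives were another added value (0.1 FPKM), expression minimum (none, 10 FPKM) or scaling, no trend, a replicate block, and each library left out.

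The 5 genes and the lists were chosen with earlier results of these data known. Listed genes are named if among the 3 largest rises or falls of their list at 48 h past the threshold in a line, or if the line difference passed at 48 h. SOX10, MITF, PAX3 and the 8 genes nearest to EDNRB are named whatever their values. Gene positions are from GENCODE v44 lifted to GRCh37, and promoters from RefSeq, which held windows for 4 of the 5 genes.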

Additional observations from a re-analysis of the deposited data

Results flagged for a closer look

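The responses of the lines to vemurafenib differed past the threshold in the interaction test (limma, adjusted p under 0.01) for 10 listed genes at 24 h and for 16 at 48 h, of 64 tested, where 3.71% and 7.48% of all genes did. Values are the COLO858 minus the MMACSF log2 fold change. A gene entered this test if it reached a group mean of 1 FPKM in either line. KEL, GNA14 and F2RL1 reached it in COLO858 alone, and S1PR3 in MMACSF alone. Their differences are almost wholly the change of that line, and the line near 0 adds little spread. Passing the test therefore does not compare their responses in the lines.

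Among enzymes of endothelin processing, KEL differed by 2.09 at 24 h and 1.59 at 48 h, and PCSK5 by -2.19 and -1.95. Among signal carriers, GNA14 differed by -1.75 and -1.66, with all MMACSF libraries listed at 0. RGS5 differed by -3.57 and -3.13. At 48 h RGS10 differed by -2.15, RGS3 by 1.70 and ARRB1 by -0.94.

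Among the neural crest genes, SNAI2 differed by 1.95 at 24 h and 1.70 at 48 h, and KITLG by 2.18 at 48 h. Among other receptors, F2RL1 differed by -1.05 and -0.84, MC1R by 1.82 at 24 h, and at 48 h GPRC5B by -1.41, LPAR1 by 1.50 and S1PR3 by 0.89. Among genes known to respond to endothelin, ITGB3 differed by -1.97 and -2.78, CDH2 by -1.98 and -1.42, and MMP14 by 1.91 and 1.56. The differences were recomputed with each of the 12 libraries left out in turn. At 24 h PCSK5 ranged from -2.25 to -2.12, RGS5 from -3.89 to -3.24, ITGB3 from -2.12 to -1.81 and MMP14 from 1.76 to 2.06. At 48 h PCSK5 ranged from -2.19 to -1.71, RGS5 from -3.46 to -2.81, ITGB3 from -2.90 to -2.66 and MMP14 from 1.41 to 1.71. RGS3 ranged from 1.60 to 1.80 and GPRC5B from -1.51 to -1.31 at 48 h. Ranges of KEL and GNA14 are not given, since they reached 1 FPKM in COLO858 alone and cannot compare the lines. With 2 libraries per group, no search for a library far from its group was possible.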

How the results depend on the processing

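With 2 libraries per group and unknown depth, the counts of listed genes were the values that moved most. Of 217 gene changes recomputed, 24 changed sign under some alternative, 0 of them past the threshold, and the largest of these changes was 0.20 on the log2 scale. EDNRB between the times in MMACSF (-0.04 to 0.29) and EDN3 between the times in COLO858 (-0.40 to 0.01) were among them when 1 library was left out. With the replicate number as a block, the calls among the listed genes rose to 32 in COLO858 at 24 h, 38 at 48 h and 21 between the times. They rose to 20 and 23 in MMACSF, and to 22 and 33 for the line difference. Calls over all genes rose as well, to 5719, 5549 and 2280 of 12696 in COLO858. Over all genes they were 3284 and 3790 of 12599 in MMACSF, and 2396 and 3434 of 13595 for the line difference. The labels do not say what the numbers mark. Same-numbered libraries deviated together by a correlation of 0.196 to 0.211 in COLO858 and 0.0628 to 0.113 in MMACSF. With only 2 numbers per line, they were not treated as pairs in the main fits. With the block, 45 changes of the named listed genes newly passed and 0 no longer did. Missed thresholds in the main fits therefore depend on that choice. With the block, SOX10 had a limma adjusted p of 0.00056 and 0.000252 in COLO858 at 24 h and 48 h and of 0.0111 and 0.00243 in MMACSF, and MITF had 0.000567 and 0.943 in COLO858 and 0.207 and 0.04 in MMACSF. EDNRB was higher in the library numbered 2 in 6 of 6 groups. Within a number, its log2 difference from DMSO was 4.29 and 4.19 in COLO858 at 24 h, 3.91 and 3.92 at 48 h, and 1.92 to 2.11 in MMACSF.

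A minimum of 10 FPKM gave 8 listed calls in COLO858 at 48 h, 0 between the times and 10 for the line difference at 48 h. Over all genes it gave 779 and 136 of 7657 in COLO858 and 691 of 8576 for the line difference. Fewer genes were tested, and ECE1 could not be fitted in MMACSF. Without a minimum, the counts were 0 between the COLO858 times and 4 in MMACSF at 24 h. All genes gave 86 of 18234 and 523 of 17710 there. Median-ratio rescaling gave 2 between the COLO858 times, beside 271 of 12690 over all genes. It moved ECE1 in MMACSF to -0.38 at 24 h and -0.55 at 48 h. With 0.1 FPKM added in place of 1, EDN3 in COLO858 was -6.40 and -6.70, ECE1 was -1.58 in COLO858 at 24 h and -0.53 in MMACSF at 48 h, and 2 of the 8 genes nearest to EDNRB were shared. A smaller added value lengthens log2 changes of low genes by construction.

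With each library left out in turn, the listed calls ranged from 1 to 8 in COLO858 at 24 h, 1 to 6 at 48 h and 0 to 0 between the times, 0 to 0 and 0 to 3 in MMACSF, and 7 to 10 and 8 to 16 for the line difference. The lone library of a group was then assumed to vary like the others. Counts over all genes are not given for these fits, so nothing is read from the listed counts about the lists. EDNRB ranged from 4.07 to 4.40 and from 3.74 to 4.09 in COLO858, and from 1.82 to 2.15 and from 1.94 to 2.27 in MMACSF.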
